A study of Mus musculus with 42 samples.

Results

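The measurement described here was RNA abundance at 4 h of recovery from arsenic stress in NIH3T3 cells, an immortalized mouse embryonic fibroblast line. Members were 3 of the 42 libraries of the series, chosen by their labels: the single recovery library (RC4) and both non-treated libraries (NT). RC4 cells had been exposed to 250 µM sodium arsenite for 1 h, washed and returned to normal medium for 4 h. NT cells were cultured in normal medium and were harvested at 0 h (NT replicate 1) and at 4 h (NT replicate 2). Another RNA-seq library, taken at the end of the 1 h of arsenite (AS), entered the same fit and is used only for comparison. All 4 libraries were strand-specific RNA-seq of the same cell line, counted on coding sequences. With 1 RC4 library the recovery condition had no replicate, and nothing in the labels says whether the NT libraries came from separate cultures.

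Arsenite binds thiol groups of proteins and generates oxidative stress, so that it engages several transcriptional programs at once. Misfolded proteins release HSF1, which drives chaperone genes, while oxidized KEAP1 releases NRF2, which drives genes for glutathione, thioredoxin and heme metabolism. Phosphorylation of eIF2α during the stress halts bulk translation and allows ATF4 to be made, which drives genes for amino acid supply, and kinase cascades switch on immediate early transcription factors within minutes.

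The libraries held 17137579 to 25194062 coding reads on listed genes, and each listed gene had at least 5 reads. Of 12347 gene symbols listed in any RNA-seq library, 10814 had more than 5 reads in all 4 and were tested. The fibroblast label was checked against its markers, all 10 of which were listed in every library. Their summed level, scaled to library totals (rpm), was 21885 and 19247 in NT and 9654 in RC4. Myoblast, epithelial and endothelial markers summed to at most 3.2 rpm in any library. Of 4 immune markers only Cd68 was listed, at 8.3 and 6.0 rpm in NT, 10.3 in AS and 24.7 in RC4, and the part of these shifts in the results was not tested.

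RC4 RNA was concentrated in few genes. The 10 genes with most reads took 20.9% of all RC4 reads, against 6.59% to 7.16% in the other 3 libraries. Hsph1, the HSP110 nucleotide exchange factor, held 3.92% of RC4 reads and 0.091% and 0.0939% of NT reads. Hspa1b and Hspa1a, the inducible HSP70 genes, held 3.21% and 2.66%, from at most 0.00848% in NT. Hsp90ab1, an HSP90 gene that is abundant without stress, reached 2.03% from 0.586% and 0.59%. For this reason normalised read counts are by the median ratio method, which sets the typical gene to no change. Scaling to library totals instead moved the median log2(ratio) of all genes by -0.81. All changes below are therefore relative to the typical gene. Where a stated list median turned direction under library totals, its value on that scale is given beside it. The named genes checked on that scale leave out those given only as members of a pathway. Of 115 named genes that were called 23 lost the call on that scale and none reversed.

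At 4 h of recovery 1531 genes (14.2% of 10814) were raised and 1445 (13.4%) were lowered relative to NT (edgeR quasi-likelihood test, Benjamini-Hochberg adjusted p below 0.05 and at least 2-fold). Under library totals the split was 517 raised and 4374 lowered. Of the raised genes 416 passed 4-fold and 94 passed 10-fold, and of the lowered genes 280 passed 4-fold. Raised genes together took 45.6% of RC4 reads, from 14.8% in each NT library, and lowered genes took 1.51%, from 7.03% and 6.89%. The spread between both NT libraries, which also differ by harvest time, was small by comparison. The median size of the log2 difference was 0.18 between NT replicates and 0.61 between RC4 and NT, and 231 genes (2.14%) were 2-fold apart between NT replicates. Only this NT spread, with 1 residual degree of freedom per gene moderated across genes, enters the adjusted p, and the RC4 library was assumed to vary like NT.

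**Figure D1:**
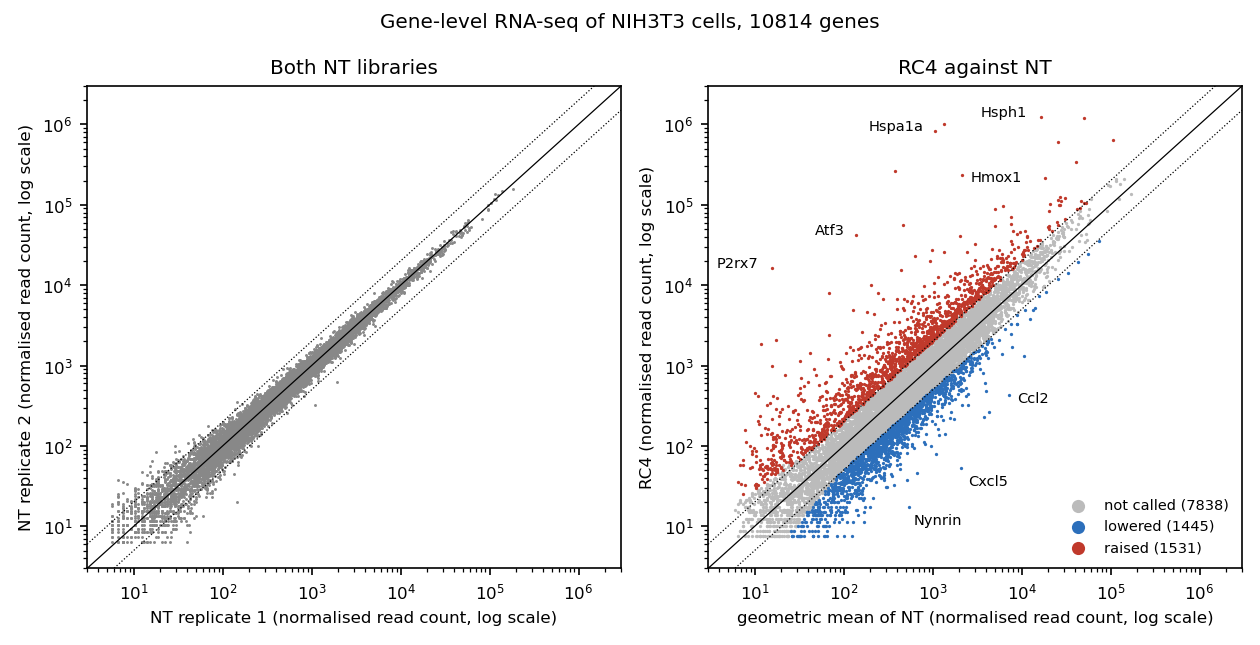
Normalised read counts of 10814 genes on log axes, NT replicate 1 against NT replicate 2 (left) and the geometric mean of NT against RC4 (right), with 1 point a gene, a solid line at equality and dotted lines at 2-fold. The cloud is narrow between NT libraries and wide in RC4, where 1531 raised genes (red) reach up to the Hspa1 genes and Hsph1 and 1445 lowered genes (blue) reach down to Cxcl5, Ccl2 and Nynrin.

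Inducible chaperone genes were among the most raised genes. Of 15 tested genes of the HSP70 and HSP110 families 8 were raised and 2 lowered (53.3% and 13.3%, against 14.2% and 13.4% of all genes). Their median log2(ratio) was 1.41, against -0.01 over all genes. By library totals 7 were raised and 3 lowered. Hspa1a had 1187 and 965 normalised reads in NT, 58478 in AS and 832706 in RC4. Hspa1b went from 1519 and 1181 in NT to 71419 in AS and 1005950 in RC4. Both levels in RC4 lay far above each NT library, by a log2(ratio) of 9.59 ± 0.17 (SE, adjusted p = 1.3e-38) for Hspa1a and 9.54 ± 0.18 for Hspa1b. Hspa1l, another copy at the same locus that is mostly known from testis, followed with 9.45 ± 0.17. Hspa1l reads stood at 0.312 to 0.401 of Hspa1a reads and Hspa1b reads at 1.21 to 1.28 in every library. Hspa1a and Hspa1b are near identical in sequence, and the separate values of these related genes are uncertain.

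The constitutive family members had smaller changes. Hspa8, the abundant HSC70, had 38825 and 42962 normalised reads in NT and 336921 in RC4 (log2(ratio) = 3.04 ± 0.13), and Hspa4l, a cytosolic HSP110 relative, reached 3.39. Hspa9, the mitochondrial HSP70, was at 1.97. In contrast, Hyou1, the HSP110-type factor of the endoplasmic reticulum (ER), fell from 1939 and 1919 to 439 (log2(ratio) = -2.14 ± 0.19, adjusted p = 7.3e-13). Hspa12b, an atypical member of endothelial cells, was also lowered, at -2.74.

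DNAJ proteins deliver clients to HSP70. Of 36 tested 6 were raised and 4 were lowered, shares near those of all genes, and the median was 0.25 (-0.55 by library totals with 5 raised and 11 lowered). The few raised members changed strongly. Dnajb1 had 463 and 467 normalised reads in NT, 14207 in AS and 56107 in RC4 (log2(ratio) = 6.92 ± 0.16). Dnaja4 had 66.1 and 70.1 in NT, 490 in AS and 8023 in RC4 (6.88 ± 0.18). Dnaja1 and Dnajb4 rose by 3.22 and 2.98. The 4 lowered members, Dnajc14, Dnajc30, Dnajc16 and Dnajc28, belong to the diverse C class and ranged from -1.09 to -2.64.

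HSP90 holds clients near their native state and works with co-chaperones. Of 19 tested genes 9 were raised and none was lowered (median 0.60, or -0.21 by library totals with 6 raised and 4 lowered). Hsp90aa1, the stress-inducible cytosolic HSP90, rose from 22473 and 28677 normalised reads to 603460 (log2(ratio) = 4.56 ± 0.15). Hsp90ab1 rose from 105039 and 105653 to 635965 (2.59 ± 0.13), whereas the ER and mitochondrial paralogs Hsp90b1 (-0.11) and Trap1 (-0.39) were not called. Among co-chaperones, Chordc1 rose by 3.59, Ahsa2 by 2.02, the HSP90 ATPase activator Ahsa1 by 2.01 and Stip1, which links HSP70 to HSP90, by 1.91.

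Small heat shock proteins bind unfolding proteins without ATP, and BAG proteins release clients from HSP70. Of 10 tested genes 4 were raised and none was lowered (median 0.43, or -0.38 by library totals with 4 raised and 1 lowered). Cryab, αB-crystallin, rose from 646 and 611 normalised reads to 22737 (log2(ratio) = 5.18 ± 0.15). Bag3 rose from 1669 and 1105 to 26186 (4.24 ± 0.16), and its partner Hspb8 by 3.63. Hspb1, the HSP27 gene, could not enter the test because it was listed in neither NT library. It had 37 reads in AS and 13821 in RC4. Against the 5 reads at which listing starts, Hspb1 was at least 3290-fold higher in RC4.

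All 10 tested chaperonin genes, which code for the folding barrels, lay above 0 and 4 were raised (median 0.89). By library totals 2 were raised, with a median of 0.09. Hspd1 and Hspe1, the mitochondrial HSP60 and its lid HSP10, rose together: Hspd1 from 17021 and 20156 normalised reads to 214972 (log2(ratio) = 3.53 ± 0.14) and Hspe1 from 4973 and 5066 to 54440 (3.44 ± 0.14). In AS they stood at 16390 and 6451, near NT. The cytosolic ring subunits Cct7 (1.32) and Cct8 (1.01) just passed the 2-fold line, and Cct8 missed it under TMM scaling (0.96).

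Hspd1 and Hspe1 are transcribed in opposite directions from 1 shared promoter, which is shown here because both genes rose together and the promoter holds the letters of a heat shock element, the site of HSF1. The letters searched were GAA, TTC and GAA, or TTC, GAA and TTC, each set apart by any 2 bases, on both strands, in windows from 250 bases before to 50 after each RefSeq gene start (GRCm38.p6). Windows were matched by symbol for 8427 of 10814 tested genes. The matched letters are in capitals, and each stretch is read 5′ to 3′ in the direction of its gene. The stretches lie at chr1:55088056-55088084 on the minus strand for Hspd1 and chr1:55088051-55088079 on the plus strand for Hspe1.
Hspd1: gcggggccTTCCGGAAGGTTCtagaacgg
Hspe1: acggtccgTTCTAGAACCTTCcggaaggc
The stretches come from opposite strands of overlapping bases, and their capitals mark different matches that overlap. The matches begin 144 bases before the Hspd1 start and 89 before the Hspe1 start. These letters occurred in 0.558% of all genes with a window (47 genes), 0.597% of raised genes, 1.67% of genes raised over 4-fold and 0.452% of lowered genes. Hsph1, Chordc1 and Dnajb6 were the other genes of the chaperone lists with a match. Of genes with a window, matches were in 1 of 11 HSP70 and HSP110 genes, 1 of 31 DNAJ genes and 1 of 16 HSP90 genes. They were in 2 of 9 chaperonin genes and 0 of 8 small heat shock and BAG genes. No match says only that these letters are not in the window.

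Genes attributed to NRF2 were widely raised in RC4. Of 32 tested 20 were raised and none was lowered (62.5% raised, median log2(ratio) = 1.31), and by library totals 10 were raised and 1 lowered. Hmox1, heme oxygenase 1, had 2536 and 1780 normalised reads in NT, 23085 in AS and 236929 in RC4 (6.78 ± 0.17, adjusted p = 1.9e-33). Srxn1, which repairs over-oxidized peroxiredoxins, rose from 146 and 110 to 4967 (5.27 ± 0.19). Txnrd1, the cytosolic thioredoxin reductase, stood at 4816 and 5187 in NT and at 5663 in AS and reached 88029 in RC4 (4.14 ± 0.14). Both subunits of the enzyme that limits glutathione synthesis rose, Gclc by 2.70 and Gclm by 1.92, as did the peroxide-reducing enzyme gene Prdx1 (2.20) and the ferritin chains Ftl1 (1.91) and Fth1 (1.26). Nqo1, a classical target in many tissues, was at 0.39 and was not called, and neither were G6pdx and Gstm1, both at 0.00.

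Slc7a11, the cystine transporter that both NRF2 and ATF4 can induce, changed direction between the end of stress and recovery. It had 82.1 and 58.6 normalised reads in NT, 18.7 in AS and 2384 in RC4, a log2(ratio) of -1.91 in AS and 5.07 ± 0.23 in RC4 against NT.

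The antioxidant response element, the site of NRF2, was searched as TGACNNNGC on both strands. It was present in 17.2% of all genes with a window, 20.6% of raised genes, 24.1% of genes raised over 4-fold and 14.9% of lowered genes. AP-1 letters, TGANTCA, were present in 5.85%, 9.04%, 12.4% and 4.89% of the same sets, and 117 genes had both motifs, which can overlap. The ATF4 site TGATGNAA was present in 2.56%, 4.77%, 5.35% and 1.99%. For NRF2 targets and Slc7a11 the following stretches are shown with the matched letters in capitals, each in the direction of its gene, since these genes carried the changes described above. They lie at chr10:82859104-82859132 (plus strand) for Txnrd1, chr3:122245413-122245441 (plus) for Gclm, chr4:116685456-116685484 (plus) for Prdx1 and chr3:50443662-50443689 (minus) for Slc7a11. The first 3 hold TGACNNNGC on the opposite strand, where in Prdx1 it overlaps the AP-1 letters, and Slc7a11 holds the ATF4 letters.
Txnrd1: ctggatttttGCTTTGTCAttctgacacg
Gclm: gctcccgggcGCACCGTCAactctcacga
Prdx1: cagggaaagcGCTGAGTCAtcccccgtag
Slc7a11: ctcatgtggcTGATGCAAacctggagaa
Of 25 NRF2 targets with a window 8 held TGACNNNGC, and of 26 ATF4 targets 8 held TGATGNAA. These are matches of letters and not evidence of binding.

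Metal handling and protein disposal changed with the chaperones. Slc30a1, a zinc exporter under metal control, rose from 160 and 163 normalised reads to 2594 (log2(ratio) = 4.00 ± 0.19). The metallothionein Mt1 rose less, from 2752 and 1890 to 5063 (1.12 ± 0.16), and Mt2 was at 0.66 and was not called. Ubb, a stress-inducible ubiquitin gene, rose from 26207 and 27162 to 124866 (2.23 ± 0.13), and Rps27a, which codes for ubiquitin fused to a ribosomal protein, was at 0.39 and was not called. Proteasome subunits shifted by little but widely. Of 37 tested 33 lay above 0 and 8 were raised, from Psmd8 (1.50) to Psmd12 (1.01), and none was lowered (median 0.64, or -0.17 by library totals with 0 raised and 2 lowered). Zfand2a, an arsenite-inducible factor that associates with the proteasome, rose from 194 and 217 normalised reads to 9937 (5.60 ± 0.17). Sqstm1, the autophagy receptor p62, rose from 7033 and 5468 to 97199 (3.96 ± 0.14), and of 18 AN1 zinc finger and autophagy genes 9 were raised and none was lowered. By library totals 5 of these were raised and 2 lowered.

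**Figure D2:**
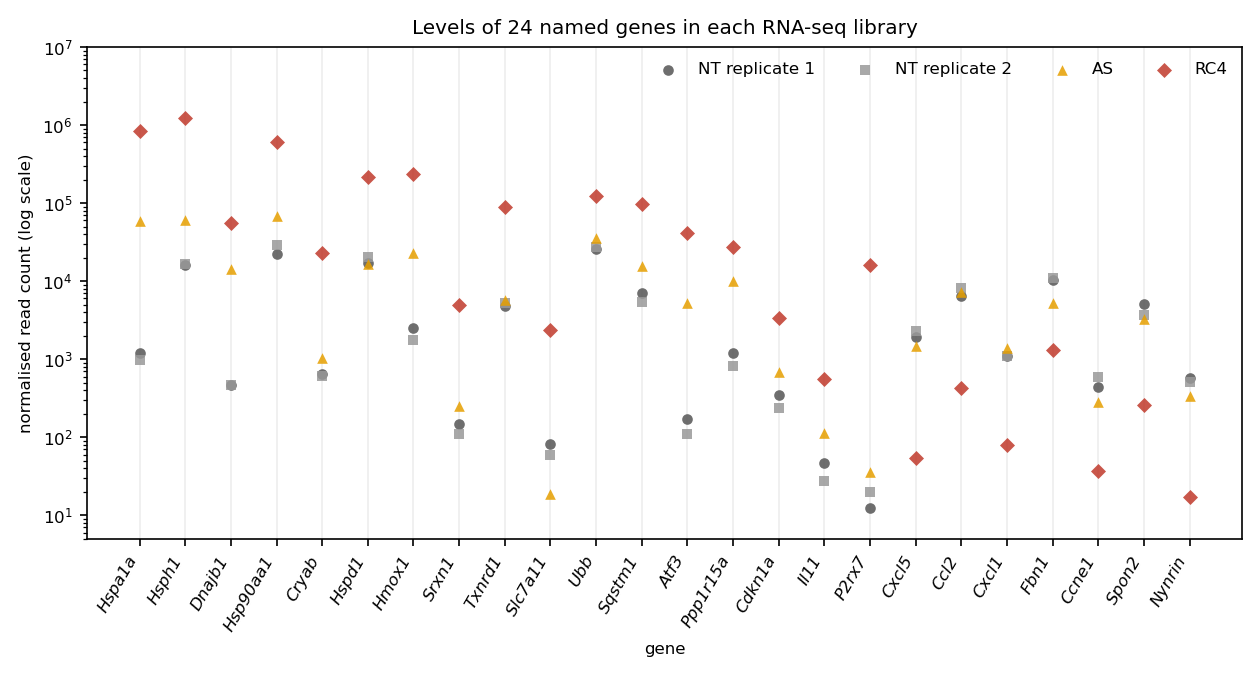
Normalised read count (log axis) of 24 named genes in each of the 4 RNA-seq libraries, with 1 point a library. RC4 (diamonds) lies above both NT libraries (circles, squares) for the 17 genes from Hspa1a to P2rx7 and below them for the 7 genes from Cxcl5 to Nynrin, and the NT points nearly coincide for most genes. AS (triangles) lies between NT and RC4 for Hspa1a and Hmox1 and at the NT level for Hspd1, Txnrd1 and Ccl2.

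ATF4 targets were the list with the second largest share of raised genes, 22 of 29 (75.9%) with 1 lowered, after the dual-specificity phosphatases described below. By library totals 11 were raised and 2 lowered. Ppp1r15a, which codes for the eIF2α phosphatase subunit GADD34, rose from 1188 and 824 normalised reads to 10066 in AS and 27368 in RC4 (log2(ratio) = 4.76 ± 0.16). Cth, the enzyme that makes cysteine from cystathionine, rose from 13.2 and 24.1 to 391 (4.40 ± 0.38), and the pseudokinase gene Trib3 from 34.9 and 34.5 to 358 (3.36 ± 0.33). The proapoptotic factor Ddit3 (CHOP) was raised by 2.83, the glutathione-degrading enzyme Chac1 by 2.92 and asparagine synthetase Asns by 1.34. Pck2, the mitochondrial carboxykinase, was lowered (-1.01). Of 20 cytosolic aminoacyl-tRNA synthetase genes 8 were raised and none was lowered, led by Aars (2.31), Sars (2.29), Rars (1.91) and Nars (1.72). Their median was 0.75 (-0.06 by library totals, with 3 raised and 6 lowered).

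Of 28 tested genes of the unfolded protein response of the ER 5 were raised and 4 lowered (17.9% and 14.3%, against 14.2% and 13.4% of all genes), with a median of -0.17. By library totals 2 were raised and 13 lowered. Dnajb9, an ER DNAJ protein, was raised by 2.34 and Atf6, an ER stress sensor, by 1.13. The ER chaperone Hspa5 (BiP) was at 0.94 and not called. The lowered genes were Hyou1, the ER degradation components Derl2 (-1.16) and Syvn1 (-1.12), and Creld2 (-1.06).

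Of 31 immediate early transcription factor genes 20 were raised and 1 was lowered in RC4 (median 1.30), and 21 were raised in AS (median 1.43), with 15 raised in both. By library totals 12 were raised and 1 lowered in RC4. Atf3 went from 174 and 111 normalised reads in NT to 5195 in AS and 41816 in RC4 (log2(ratio) = 8.19 ± 0.19). The AP-1 gene Fos had 189 and 215 in NT, 1560 in AS and 1818 in RC4, and Egr1 had 2346 and 3060, 18436 and 16151, and neither was called different between RC4 and AS. Direct comparison of RC4 with AS found 9 members higher and 8 lower in RC4. The small MAF genes Maff (3.88) and Mafk (3.42), partners of NRF2, were among the most raised. Without NT replicate 1 the value of Maff moved by 0.60. All but 1 of 10 dual-specificity phosphatase genes, whose products switch off MAP kinases, were raised in RC4 (median 2.10), led by Dusp4, which rose from 224 and 212 to 4319 (4.31 ± 0.17). By library totals 5 of these genes were raised and none was lowered. Dusp8 had 8.5 and 22.0 in NT and 140 in RC4, and leaving out NT replicate 1 or 2 moved its log2(ratio) of 3.20 by -0.53 or 0.84.

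**Figure D3:**
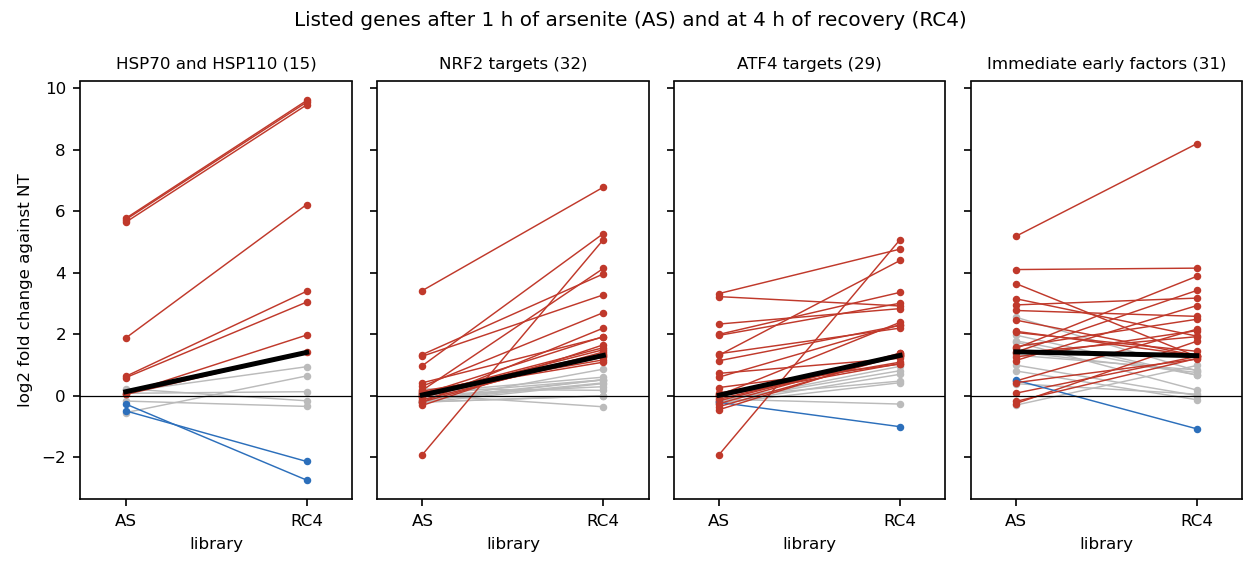
log2 fold change against NT in AS and in RC4 for the tested members of 4 gene lists, with 1 line a gene (red raised, blue lowered, grey not called in RC4) and the list median in black. Medians go from 0.13 to 1.41 for HSP70 and HSP110 genes, from 0.02 to 1.31 for NRF2 targets and from 0.02 to 1.31 for ATF4 targets, and from 1.43 to 1.30 for immediate early factors. Both comparisons share the NT libraries.

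Of 18 p53 target genes 11 were raised and 4 were lowered (61.1% and 22.2%, against 14.2% and 13.4% of all genes). By library totals 7 were raised and 5 lowered. The cell cycle inhibitor gene Cdkn1a (p21) had 353 and 238 normalised reads in NT, 695 in AS and 3363 in RC4 (log2(ratio) = 3.51 ± 0.19), and the p53 ubiquitin ligase gene Mdm2 had 1097 and 1228 in NT and 12621 in RC4 (3.44 ± 0.15). The kinase gene Plk3 rose by 4.05, and the proapoptotic genes Bbc3 and Bax by 2.06 and 1.24. The death receptor gene Fas was lowered (-2.12), as were Phlda3 (-1.64), Ei24 (-1.39) and Sesn1 (-1.25). Trp53 itself was at -0.20.

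Among the stress-sensing regulators themselves, the factor behind the heat shock response did not move with its targets. Hsf1 was at -0.05 and was not called, while Hsf2 was raised (1.48 ± 0.17). Bach1, the repressor that competes with NRF2, rose from 1163 and 1167 normalised reads to 6059 (2.38 ± 0.15), Nfe2l2, which codes for NRF2, by 1.10 and the metal sensor Mtf1 by 1.23. Keap1, the inhibitor of NRF2, was lowered from 451 and 397 to 179 (-1.24 ± 0.26).

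Secreted factors moved both ways, and the median of their list was 0.11 (-0.70 by library totals). Of 28 cytokine, growth factor and prostaglandin genes 11 were raised and 8 were lowered (39.3% and 28.6%), or 6 and 10 by library totals. The cytokine gene Il11 had 47.2 and 27.2 normalised reads in NT, 112 in AS and 552 in RC4, a log2(ratio) of 3.88 to NT. The prostaglandin synthase gene Ptgs2 (3.44) and the EGF receptor ligand gene Hbegf (3.42) were also raised. All 5 tested chemokine genes of the list were lowered. Cxcl5, a neutrophil attractant, fell from 1938 and 2286 to 53.6 (-5.30 ± 0.26, adjusted p = 6.4e-22), Ccl2, the monocyte attractant, from 6403 and 8128 to 430 (-4.08 ± 0.20) and Cxcl1 from 1084 in each NT library to 78.5 (-3.79 ± 0.26). Ccl7 was at -2.16 and Cxcl12 at -1.42. In AS these 5 genes were not called, with log2(ratio) values from -0.57 to 0.35. Lif (-2.26), Fgf7 (-2.23) and Tgfb3 (-1.85) were the other lowered genes.

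Of 45 extracellular matrix genes 8 were lowered and 6 raised (17.8% and 13.3%, near the 13.4% and 14.2% of all genes), and by library totals 27 and 3. Fbn1, fibrillin 1, fell from 10487 and 10974 normalised reads to 1300 (log2(ratio) = -3.05 ± 0.17) and Col5a3 from 1485 and 1267 to 142 (-3.28 ± 0.24), whereas Serpinh1, the collagen chaperone HSP47, rose from 20699 and 20607 to 103499 (2.33 ± 0.13). The main fibroblast collagens Col1a1 (-0.18) and Col1a2 (-0.29) were not called. Of 56 cell cycle genes 10 were lowered and 5 raised (17.9% and 8.93%), and by library totals 30 were lowered and none was raised. Ccne1, cyclin E1, fell from 445 and 594 to 37.4 (-3.79 ± 0.34), while its paralog Ccne2 was raised (1.12). Lowered members with a role in mitosis included Cdc25b (-1.96), Cdk1 (-1.78), Plk1 (-1.41) and Ccnb1 (-1.24). The replication genes Mcm2 (1.19), Cdt1 (1.08) and Mcm10 (1.07) were raised beside Ccne2.

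Of 281 zinc finger genes of the Zfp series, a large class of DNA-binding factors, 70 (24.9%) were lowered and 23 (8.19%) raised, with a median of -0.44 and with 94 lower in RC4 than in AS. By library totals 168 were lowered and 7 raised. Zfp961 fell from 111 and 147 normalised reads to 11.2 (log2(ratio) = -3.51 ± 0.53), and Zfp703 rose from 68.0 and 41.9 to 568 (3.36 ± 0.30). In the second assay described below, 3′READS, the median of 112 tested Zfp genes was 0.27 with the set as a block, against -0.03 over all genes. Fewer Zfp genes were tested there, and the RNA-seq median of the same genes was not computed. Cytosolic ribosomal protein genes shifted together by little: all 74 lay above 0 (median 0.62), but only Rps14 passed 2-fold (1.10), and by library totals the median was -0.19 with none called. The 74 nuclear genes of the respiratory chain stayed at the typical gene, with a median of 0.00, a range from -0.66 to 0.60 and none called, whereas by library totals the median was -0.80 and 25 were lowered.

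Cleavage and polyadenylation factors form mRNA 3′ ends, and stress granules hold stalled mRNAs. Of 22 cleavage and polyadenylation factor genes 4 were raised (18.2%, against 14.2% of all genes) and none was lowered: Cpsf6 (1.86), Cstf3 (1.68), Rbbp6 (1.67) and Pcf11 (1.44). By library totals 1 was raised and 6 lowered. Pcf11 had already reached its level in AS, with 2679 and 2621 normalised reads in NT, 6423 in AS and 7207 in RC4. In 3′READS with the set as a block Cpsf6 was at 0.24, Cstf3 at 0.05 and Pcf11 at 0.86, and Rbbp6 was not tested. Of 21 stress granule genes 6 were raised (28.6%) and none was lowered, led by Fxr1 (1.88) and Ewsr1 (1.63). By library totals 1 was raised and 2 lowered, and under TMM scaling 4 were raised. The nucleators G3bp1 (0.28) and Tia1 (-0.85) were not called. In 3′READS with the set as a block Fxr1 was at 0.58 and Ewsr1 at 0.41. Of 16 stress granule genes tested there none was called higher and 1 was called lower. Of 41 mRNA decay genes 3 were raised and 2 lowered (7.32% and 4.88%), and by library totals 0 and 14. Zc3h12a, the endonuclease Regnase-1, fell from 806 and 786 to 113 (-2.81 ± 0.26), and Dcp2, the decapping enzyme, from 600 and 715 to 243 (-1.43 ± 0.24). Of 27 actin cytoskeleton genes 5 were raised and 3 lowered, or 3 and 14 by library totals. The shares of 18.5% and 11.1% were near the 14.2% and 13.4% of all genes. The crosslinker gene Flnc rose by 2.92, while its paralog Flna fell by 1.17. Of 23 cholesterol synthesis genes 2 were raised, Cyp51 (1.24) and Fdps (1.06), and 1 was lowered, or 0 and 10 by library totals. The shares of 8.7% and 4.35% were below those of all genes.

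**Figure D4:**
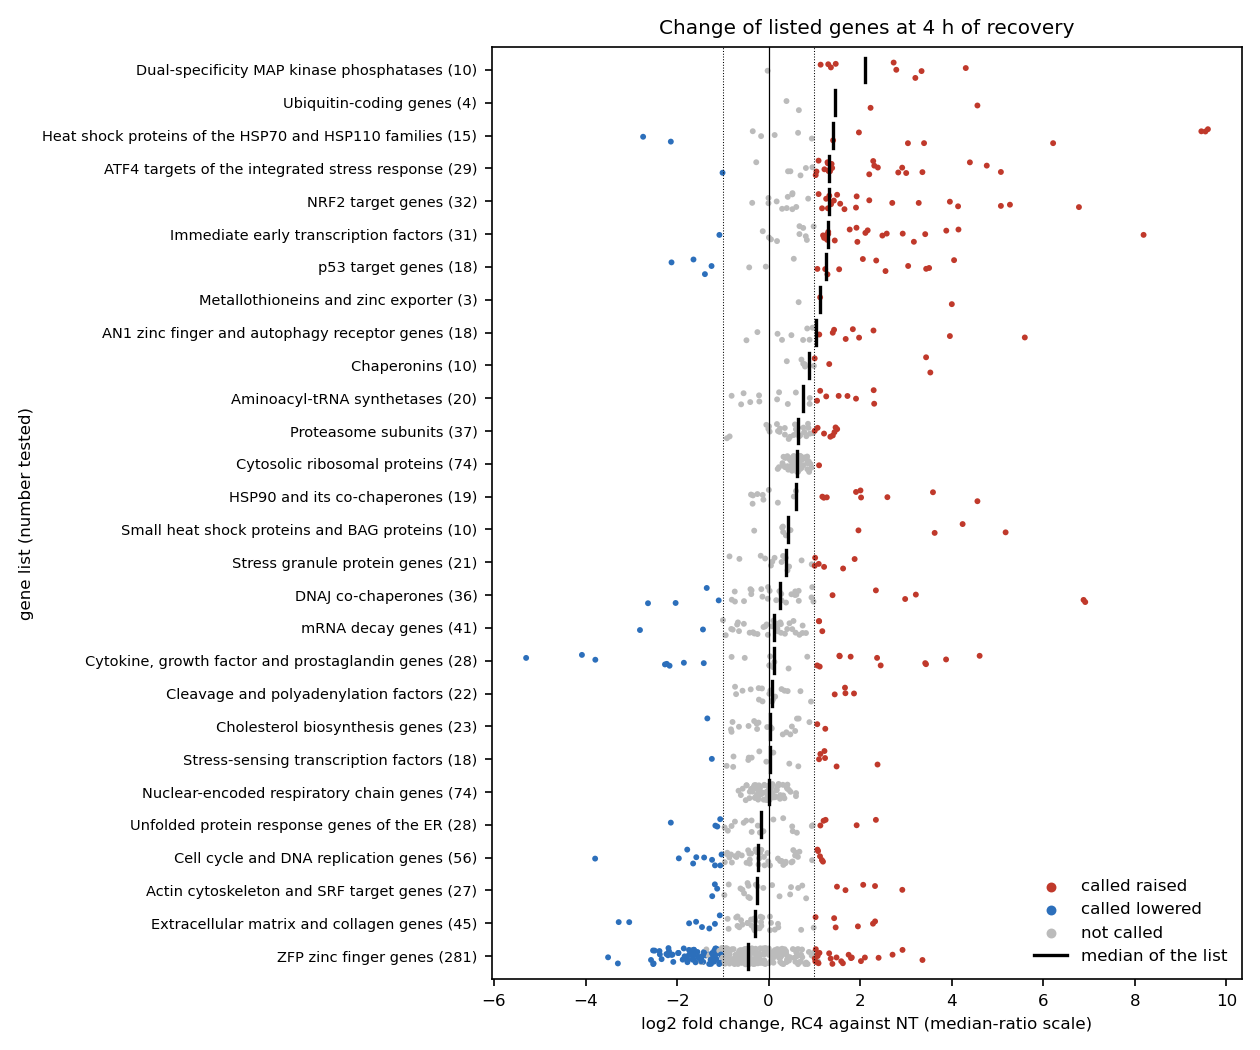
log2 fold change of RC4 against NT for the tested members of 28 gene lists, ordered by the list median (black bar), with 1 point a gene (red raised, blue lowered, grey not called) and dotted lines at 2-fold. Dual-specificity phosphatases, HSP70 and HSP110 genes and ATF4 and NRF2 targets lie to the right, and Zfp zinc finger, matrix and cell cycle lists to the left, with medians from 2.10 to -0.44.

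Several of the most raised genes belong to no stress list. P2rx7, an ATP-gated ion channel of immune cells, had 12.3 and 19.9 normalised reads in NT, 35.7 in AS and 16313 in RC4, the largest fitted change of all genes (log2(ratio) = 9.99 ± 0.22). Star, the cholesterol carrier of steroid-producing cells, had 13.2 and 10.5 in NT and 1845 in RC4 (7.26 ± 0.29), and the sarcomere gene Myom1 had 14.2 and 20.9 in NT and 2065 in RC4 (6.88 ± 0.27). Its paralog Myom2 was listed in neither NT library and had 427 reads in RC4, at least 102-fold above the listing minimum. P2rx7, Star and Myom1 were not tested in 3′READS. There Star had 6 and Myom1 27 assigned reads in RC4, and P2rx7 had no assigned reads. Eid3 rose by 5.95 ± 0.31, and as RefSeq places it inside Txnrd1 its reads may not be separable. Of 12347 symbols listed in any RNA-seq library, 487 were listed in RC4 and in neither NT library, 42 of them with 50 reads or more. Another 229 were listed in both NT libraries and not in RC4.

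At the other end, the 15 most lowered genes included, besides the chemokines, Nynrin, which fell from 573 and 505 normalised reads to 17.4 (log2(ratio) = -4.94 ± 0.37), the matrix genes Spon2 (5050 and 3686 to 262, -4.06 ± 0.21) and Ltbp2 (3811 and 3740 to 228, -4.05 ± 0.20) and the Rab GTPase activator gene Tbc1d4 (176 and 166 to 11.2, -3.92 ± 0.50). The helix-loop-helix factor gene Atoh8 had 530 and 258 in NT and 32.4 in RC4 (-3.60 ± 0.40, moving by 0.61 without NT replicate 1). None of these was called in AS, where they lay between -0.67 and -0.09. Klf2, a transcription factor gene with 75 and 67 reads in NT and 76 in AS, was not listed in RC4. Lowered genes had a median of 303 normalised reads in NT, raised genes 449 and all tested genes 472, and their median coding lengths were 1650, 1480 and 1452 bases.

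Recovery was further from NT than the end of stress was. In the same fit AS against NT gave 194 raised genes (1.79%) and 35 lowered (0.324%). The comparisons share the NT libraries, so RC4 was tested directly against AS, where 1196 genes (11.1%) were higher and 1330 (12.3%) lower. Of the 1531 genes raised in RC4 142 were also called raised in AS and 1023 were called higher in RC4 than in AS. Of the 1445 lowered genes 18 were also called lowered in AS and 1054 were called lower in RC4 than in AS. Hsph1 illustrates the first set, with 16304 and 16804 normalised reads in NT, 60736 in AS and 1228627 in RC4, and Cxcl5 the second, with 1483 in AS. Csrnp1, an immediate early gene, reached its level during stress, with 1164 in AS and 1201 in RC4 from 79.3 and 55.5 in NT.

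The same time point was also measured by 3′READS, which sequences mRNA 3′ ends, in libraries with another set number (set 4: NT, AS and recovery at 4, 8, 12 and 24 h, 1 library each) beside 2 further sets of NT and AS. Reads were summed per gene for 6730 genes. Without the set number as a block edgeR's quasi-likelihood test called 0 genes for RC4 against NT, with 339 genes at an unadjusted p below 0.05, and DESeq2 called 11 higher and 1 lower. With the set as a block 574 genes (8.53%) were higher and 410 (6.09%) lower. Of 865 genes raised in RNA-seq and measured in both assays 790 lay higher and 373 were called higher with the block, and 1 was called lower. Of 730 lowered genes 645 lay lower and 174 were called lower, and 3 were called higher. Across 6215 genes, which are not independent replicates, the log2(ratio) values of both assays had a Pearson r of 0.666 and a Spearman rho of 0.619.

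Several leading RNA-seq genes were also called in 3′READS, and other featured genes changed far less there. Hmox1 had 421 normalised 3′READS reads in NT of set 4, 22056 at 4 h, 1815 at 8 h, 320 at 12 h and 212 at 24 h, and its blocked log2(ratio) at 4 h was 6.03 (adjusted p = 3.4e-19). Hspa1b had 106 in NT, 6442 at 4 h and 209 at 8 h (6.52 at 4 h), and Dnajb1 had 200, 2540 and 249 (4.17). By 8 h these genes had come most of the way back to NT in these single libraries. Cxcl5 had 1573 in NT, 202 at 4 h, 318 at 8 h, 393 at 12 h and 1244 at 24 h, and Cdk1 had 325, 99.8, 304, 379 and 479. For Ccl2, Hyou1 and Dusp1 the blocked log2(ratio) was -0.90, -0.09 and 0.19, against -4.08, -2.14 and 2.79 in RNA-seq. The median of the cholesterol synthesis list was -0.54 over 20 genes in 3′READS. In RNA-seq it was 0.04 over 23 genes (-0.77 by library totals), so the gene sets were not the same. These differences were not tested. Mt1 had the larger value in 3′READS. It had 2402 in NT and 25328 at 4 h in 3′READS (blocked log2(ratio) = 3.62, adjusted p = 5.1e-15), against 1.12 in RNA-seq, and the difference between assays was not tested. Hsph1 and Hspd1, among the most abundant mRNAs of RC4 by RNA-seq, had 223 and 0 assigned 3′READS reads there and were not tested in that assay.

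**Figure D5:**
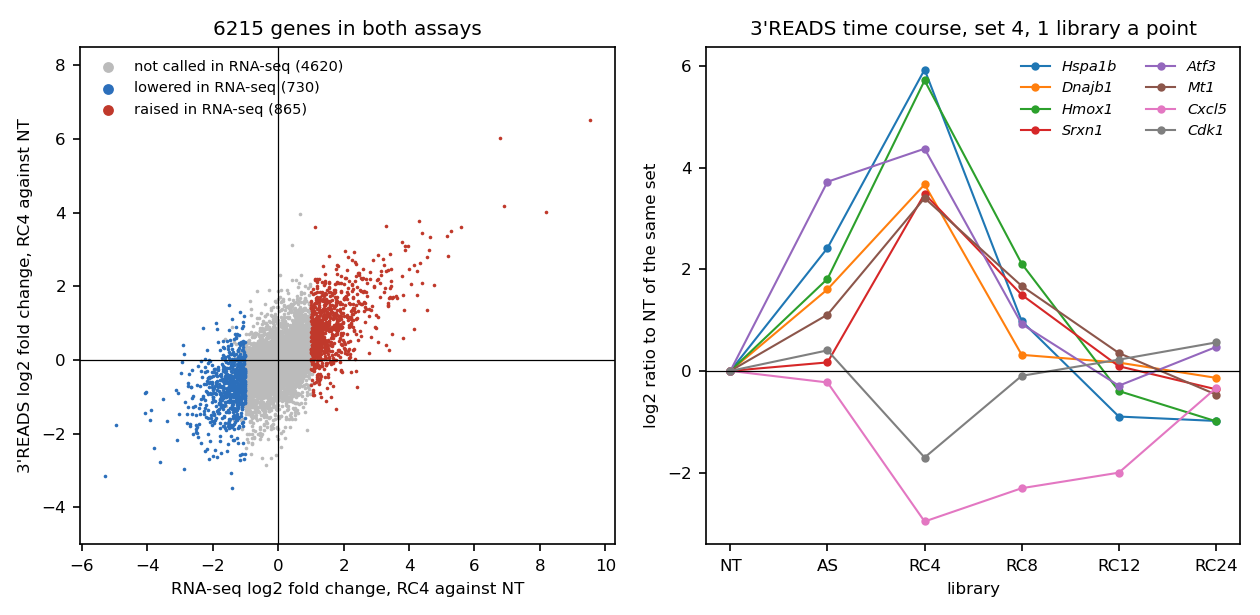
Left, log2 fold change of RC4 against NT in RNA-seq (x axis) and in 3′READS with the set block (y axis) for 6215 genes, coloured by the RNA-seq call. Right, log2 ratio to NT of the same set for 8 genes in the 3′READS libraries of set 4, with 1 library a point. Raised and lowered genes lie mostly above and below 0, and the ratios of the raised genes shown peak at 4 h, while Cxcl5 stays low to 12 h.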

How the data were processed

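RNA-seq of poly(A)+ RNA was strand-specific. Per the study's methods the authors trimmed adapters (Cutadapt), aligned with STAR to the mm9 build and summed coding reads per gene. The deposited values are whole-number counts whose totals differ between libraries, so they were taken as counts without normalization. For 3′READS the authors used bowtie2 and deposited raw counts per poly(A) site. Genes or sites under 5 reads are not listed in the deposited count files, so an unlisted gene is not a measured 0. Between 18 and 19 symbols per library had been turned into dates and were left out (0.169% to 0.257% of reads). The totals are coding reads on listed genes, not whole libraries.

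Genes with more than 5 reads in all 4 RNA-seq libraries were tested in R 4.3.3 with edgeR 4.0.16 (glmQLFit, glmQLFTest), median-ratio size factors (DESeq2 1.42.0) and Benjamini-Hochberg adjustment over all 10814 genes. A call needs an adjusted p below 0.05 and a log2 fold change of 1 in size. SE is the log2 fold change divided by the root of its F statistic. The spread came from both NT libraries only (12.1% biological coefficient of variation), so p-values measure the spread between these libraries, which may be technical. Groups came from titles. 3′READS sites of 10 total RNA libraries were assigned to last exons of GENCODE M1 (NCBIM37) or up to 4000 bases beyond and summed per gene. Same-numbered NT and AS libraries of sets 1, 2 and 4 deviated together (correlations of 0.896, 0.904 and 0.898), so the sets pair the samples and the blocked fit is given. On simulated counts for RC4 against NT over 10779 genes the test called 90.9% of genes changed by a log2 of 1.5, 98.4% at 2 and 0.0189% of unchanged genes. For the blocked 3′READS fit it called 36.2% at 1.5 and 80% at 2. The simulation changed few genes, up and down alike, and set the same spread for every library. These rates therefore say nothing about the spread of the single RC4 library or its shift in composition.

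Named genes were the 15 most raised and 15 most lowered called genes with at least 50 reads, up to 4 called members of each of 28 lists, the 5 genes with most RC4 reads and up to 6 unlisted genes each way, and members of a pathway. The members, lists and rule were chosen with earlier results of these data known. Promoter windows are from RefSeq (GRCm38.p6). Alternatives changed scaling, filter, fold minimum, tool and NT library. Those that left out an NT library from the blocked 3′READS fit were chosen after seeing the data. Results for some genes are not reported here.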

Additional observations from a re-analysis of the deposited data

Results flagged for a closer look

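The effect of treatment differed between the end of stress and 4 h of recovery for many genes: 1196 genes were higher and 1330 lower in RC4 than in AS. Among genes called against NT at both times, 15 turned direction or moved back towards NT in the direct test of RC4 against AS (edgeR quasi-likelihood test, 1 library each, with the spread of NT). Values below are log2(ratio) of RC4 to AS.

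Lowered in AS and raised in RC4 were Slc7a11 (6.99), the galactosyltransferase gene B4galt5 (2.66), the hydrolase gene Nceh1 (2.69) and the semaphorin receptor gene Plxna4 (2.16). Raised in AS and lowered in RC4 were Tnfaip3, the A20 inhibitor of NF-κB (-2.51), Traf5, a TNF receptor adapter (-2.69), the kinase gene Nuak2 (-2.93), Sertad3 (-2.97), Zfp383 (-2.17) and Zfp949 (-2.81). Tnfaip3 had 748 and 849 normalised reads in NT, 2136 in AS and 374 in RC4. Traf5 had 365 and 332, 909 and 141. In AS the adjusted p of Zfp383 (0.031), Sertad3 (0.041) and Plxna4 (0.045) was close to the threshold.

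The immediate early genes Egr2 (-2.37), Nr4a1 (-1.21) and Nr4a3 (-1.16) were raised at both times and lower in RC4 than in AS. Egr2 had 161 and 173 normalised reads in NT, 2085 in AS and 404 in RC4. For Nr4a1 and Nr4a3 the NT libraries were far apart, with 1922 and 618 reads for Nr4a1 and 146 and 19.9 for Nr4a3. Arrdc3 (1.04) and Tm2d3 (1.69) were lowered at both times and had partly returned in RC4.

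Genes listed in neither NT library were left out of the test. There were 42 with at least 50 reads in RC4, and this choice fixes their direction. Hspb1 stood out with a level at least 3290-fold above the listing minimum, and the next was Sema6a, with 534 reads in RC4 (at least 127-fold).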

How the results depend on the processing

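In RNA-seq, under library totals, RC4 against NT gave 517 genes raised and 4374 lowered (536 and 4494 by fold alone), and RC4 against AS gave 353 and 3973. Those 517 were all among the 1531 raised by median ratio, the 1445 lowered were all among the 4374, and no raised gene turned lowered. TMM gave 1437 and 1541. With no fold minimum RC4 against NT gave 2984 and 2624 and RC4 against AS 2428 and 2179. DESeq2 gave 1348 raised and 1193 lowered, all shared with edgeR's, and 12 instead of 35 genes lowered in AS. With more than 50 reads in every library 1024 genes were 2-fold lower by fold alone. Against a single NT library 1618 to 1669 genes were 2-fold higher and 1559 to 1598 lower, and against both means 1598 and 1583. The 118 named genes checked leave out unlisted genes and those given only as members of a pathway. Of these 118, none reversed under TMM, library totals, DESeq2 or a single NT library. Library totals took 23 of 115 called named genes under the threshold, TMM 1 (Cct8), and DESeq2 gave 2 no adjusted p. In 3′READS the replicate block took the calls from 0 and 0 to 574 higher and 410 lower. With the block and without 1 NT library there were 544 to 586 and 309 to 396 (557 and 389 without the NT library of set 2), and without the block 0. DESeq2 gave 11 and 1 without it. No paired analysis was possible for RNA-seq, since all 4 libraries carry the same number and leaving out an NT library leaves no spread to test with.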

Other observations

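In 3′READS the metallothionein gene Mt2 had 1054 normalised reads in NT of set 4 and 14500 at 4 h, while its log2(ratio) in RNA-seq coding counts was 0.66 and was not called. The difference between assays was not tested. The AS libraries of 3′READS differed between sets: Hspa1b had 1633, 1430 and 566 normalised reads in AS of sets 1, 2 and 4, and 374, 11.3 and 106 in NT.

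Other genes listed in RC4 and in neither NT library were the glutathione transferase gene Gsta1, with 358 reads in RC4 and none listed in NT or AS, at least 85.2-fold above the listing minimum, and Soat2, which esterifies cholesterol, with 248 reads in RC4 and 9 in AS (at least 59-fold above the listing minimum in RC4). Atp13a4 had 301 reads in RC4 and was listed in no other library. Fosb, a paralog of Fos, was listed with 39 and 5 reads in NT, 1135 in AS and 711 in RC4, and Fgf21, a hormone gene under ATF4 control, with 7 reads in AS and 98 in RC4.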
